A study of Canis lupus familiaris with 6 samples.

Results

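MDCK cells, an established epithelial line from dog kidney, were compared after 30 days of transforming growth factor beta (TGFb) with untreated cells of the same line. The comparison takes in the 2 arrays of TGFb-treated cells and the 2 arrays of untreated cells, 4 of the 6 single-colour Affymetrix arrays of the series, chosen by their labels, with all 32293 probe sets. The TGFb arrays came from cells that received TGFb at 5 ng/ml over 30 days and were passaged every few days, and the untreated arrays came from the same line in the same medium with serum and no added TGFb. The remaining arrays, 1 labelled 5-AZA (an inhibitor of DNA methylation) at 72 hours after TGFb and 1 of cells 30 days after TGFb was withdrawn, serve here for side-by-side values. They also enter the mean that picks each gene's probe set, the filter on dim probe sets and quantile normalization. A single line was used. Nothing in the labels tells whether replicate arrays stand for cultures grown apart, so p-values reflect only array-to-array spread, which may be technical.

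TGFb ligands bind a pair of serine/threonine kinase receptors, which phosphorylate SMAD transcription factors. In epithelial cells this signal is known to raise the ZEB and SNAI repressors, which silence E-cadherin and other junction genes, and to raise collagens and other matrix genes. The combined change is called the epithelial-mesenchymal transition (EMT). In kidney it is studied for its links to tubule repair and fibrosis.

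A gene is represented by the brightest of its probe sets (mean over 6 arrays) among those to which the platform annotation gives exactly 1 symbol, which leaves 15947 named genes. Values are log2 signals as deposited, differences are TGFb minus untreated, and the error after ± is the standard error of the limma fit. A gene is said to have risen or fallen where its Benjamini-Hochberg adjusted p from limma, over all 32293 probe sets, was under 0.05. The median absolute difference between the TGFb arrays was 0.181 and between the untreated arrays 0.204, over all probe sets. Array medians lay between 4.97 and 5.01. No background level comes with the values, and precision is limited by how few arrays there are.

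The labelled states were described with 5 marker genes. CDH1, which encodes the epithelial adhesion molecule E-cadherin, had signals of 6.25 and 7.24 on the TGFb arrays, against 11.64 and 11.43 on the untreated arrays. GRHL2, a transcription factor that maintains epithelial genes, had 3.25 and 4.06 with TGFb, against 8.73 and 9.003 without. Both genes were lower on each TGFb array than on either untreated array. ZEB1, a repressor of CDH1, had 8.79 and 8.50 with TGFb, against 4.21 and 3.08 without. SPARC, a collagen-binding matrix protein, had 10.93 and 11.08 with TGFb, against 5.16 and 4.41 without. LUM, which encodes the collagen-organising proteoglycan lumican, had 11.93 and 11.96 with TGFb, against 4.72 and 3.79 without. The 3 mesenchymal markers were higher on each TGFb array than on either untreated array, so all 5 markers separate the groups in the direction of the labels. LUM, SPARC and ZEB1 are also among the 15 largest increases here, and GRHL2 is among the 15 largest decreases. The markers are therefore no independent check of the labels.

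In total, 383 named genes passed, 2.4% of those tested. Of these 154 rose (0.966%) and 229 fell (1.44%), with a median log2 difference of 1.82 among those that rose and −2.30 among those that fell. The median over all named genes was close to 0, at −0.0037. By over 4 on the log2 scale, 36 genes fell and 13 rose. By a second rule with no test, which asks that every TGFb array lie at least 1 log2 unit beyond every untreated array, 214 genes were higher (1.34%) and 318 lower (1.99%), among them 149 of the 154 and 221 of the 229. These are whole cultures, in which fewer cells of a type and less RNA per cell cannot be told apart. Over all probe sets 531 passed (1.64%), 223 higher (0.691%) and 308 lower (0.954%), on 2 residual degrees of freedom. When TGFb replicate 1 was left out no probe set passed (0), while 3138 had an unadjusted limma p under 0.05. Leaving out TGFb replicate 2 gave 97, of which 77 were among the 531. Leaving out the first untreated array gave 70, with 61 of the 531, and leaving out the second gave 129, with 97 of them. None of the 383 genes changed sign when any of these 4 arrays was left out. For the 149 and 221 genes with groups at least 1 log2 unit apart this was fixed beforehand, so it says nothing about stability.

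**Figure D1:**
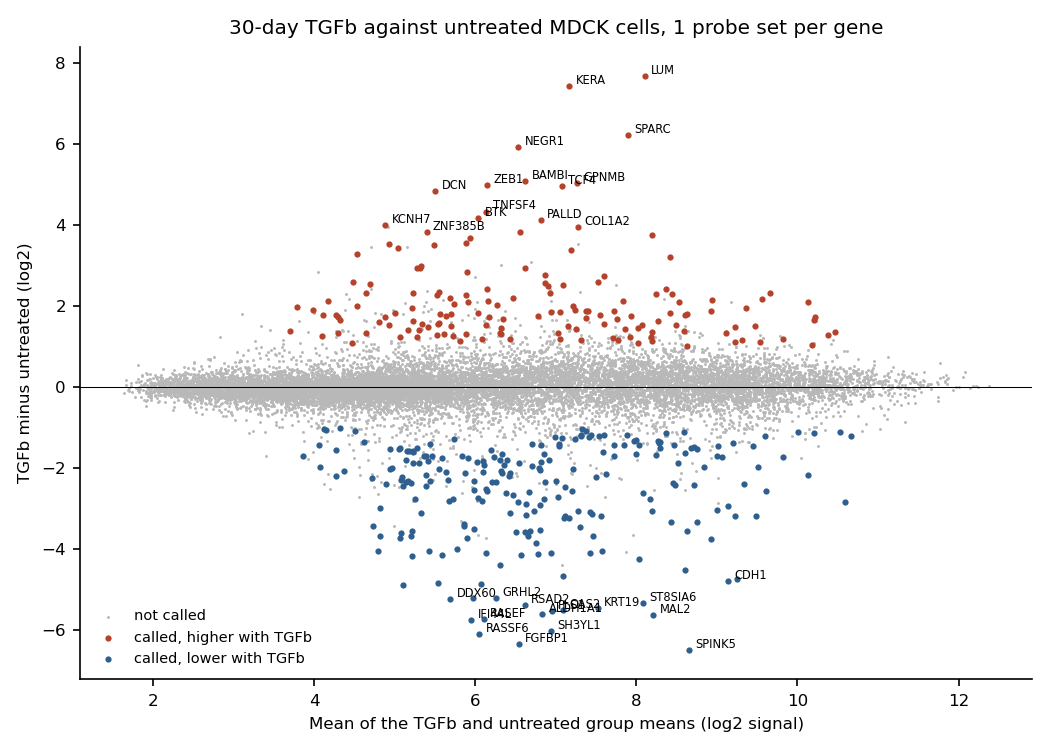
Each point is 1 named gene, with the mean of both group means on the x axis (log2 signal) and TGFb minus untreated on the y axis (log2). The 154 genes that rose are red, the 229 that fell blue and all others grey; LUM and KERA stand highest and SPINK5 lowest, at −6.49.

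The gene lists below were chosen with earlier results of these data known, so their counts describe the data and are no independent test. Beside a count, background means the share of all named genes, 0.966% for rises and 1.44% for decreases. A count of 0 in a short list is near these shares and is no result about the list. Of 13 measured ligand genes of the superfamily 2 rose (background for rises, 0.966%) and none fell. INHBA, the activin A subunit, had 8.78 and 8.86 on the TGFb arrays, against 6.13 and 6.34 on the untreated arrays, a difference of 2.59 ± 0.16 (adjusted p = 0.00709). TGFB2 had 10.24 and 10.22 with TGFb, against 8.59 and 8.83 without (1.52 ± 0.16, adjusted p = 0.0263). The replicates of each gene lay close together and the groups did not overlap. TGFB1, the usual isoform of the added factor, differed by 0.15 ± 0.22 with overlapping groups (adjusted p = 0.817).

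No receptor gene of 12 passed. TGFBR2, the ligand-binding receptor, had 7.74 and 7.77 with TGFb, against 9.16 and 8.75 without (−1.20 ± 0.19, adjusted p = 0.0637), while its partner TGFBR1 differed by 0.04 ± 0.16. BMPR1B, a receptor for bone morphogenetic proteins, had 4.95 and 7.91 with TGFb, against 2.66 and 3.30 without. Its groups do not overlap, but its TGFb arrays lie nearly 3 log2 units apart and it did not pass (3.45 ± 0.96, adjusted p = 0.2). None of 7 measured SMAD genes passed, with differences between −0.31 for SMAD4, the common partner of the signalling SMADs, and 0.73 for SMAD9. SMAD7, an inhibitor induced by the pathway, differed by 0.37 ± 0.16 (adjusted p = 0.398).

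Among 14 measured feedback and target genes BAMBI and LMCD1 rose (background for rises, 0.966%). BAMBI, a decoy receptor that dampens TGFb signalling, had 9.02 and 9.30 with TGFb, against 4.21 and 3.96 without (5.08 ± 0.18, adjusted p = 0.00365). LMCD1, a LIM-domain transcriptional cofactor, differed by 1.74 ± 0.20 (adjusted p = 0.0327). Other well-known targets did not pass, among them PMEPA1 (0.89 ± 0.17), CCN2 (0.81 ± 0.23) and TGFBI (0.78 ± 0.28). The list's median was 0.04, close to that of all genes. In the storage and activation list of 9, 1 gene fell (background 1.44%). ITGB6, a chain of an integrin that releases latent TGFb, fell by 2.76 ± 0.35 (adjusted p = 0.0402). LTBP1, which tethers latent TGFb to matrix, differed by 0.80 ± 0.17. None of 8 measured antagonists of bone morphogenetic proteins and activins passed, and the largest difference was 0.59 for FST, encoding follistatin.

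Among the EMT transcription factors a few lay far above 0 and most near it. Of 14 measured, 4 rose (background for rises, 0.966%) and none fell. ZEB1 differed by 5.00 ± 0.39 (adjusted p = 0.0133). ZEB2, the second ZEB repressor, had 9.02 and 7.91 with TGFb, against 4.97 and 4.30 without (3.83 ± 0.43, adjusted p = 0.0312). TCF4, a basic helix-loop-helix factor, had 9.51 and 9.59 with TGFb, against 4.84 and 4.34 without (4.96 ± 0.21, adjusted p = 0.00381). In all 3 genes untreated replicate 1 lay above untreated replicate 2, and the groups were far apart.

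SNAI2, encoding Slug, had 11.36 and 10.999 with TGFb, against 9.45 and 8.71 without (2.10 ± 0.29, adjusted p = 0.0482), and its call ended under robust moderation and under quantile normalization. SNAI1, encoding Snail, did not separate the groups (0.06 ± 0.20, adjusted p = 0.923). PRRX1, a homeobox factor linked to mesenchymal states, differed by 0.27 ± 0.14. The list's median was 0.04. TWIST1 has no probe set of its own symbol and is not analysed here.

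Of the factors of epithelial identity, all 14 measured members lay lower with TGFb, with a median of −0.61, and 5 of them fell (background for decreases, 1.44%). GRHL1, GRHL2 and GRHL3 of the grainyhead-like family were among them. GRHL2 differed by −5.21 ± 0.30 (adjusted p = 0.00667). GRHL1 had 3.73 and 4.21 with TGFb, against 6.37 and 6.24 without (−2.34 ± 0.21, adjusted p = 0.018). GRHL3 had 4.61 and 5.02 with TGFb, against 7.55 and 6.73 without (−2.32 ± 0.32, adjusted p = 0.0472), a call that ended under 3 of the alternative settings. EHF, an ETS factor of epithelia, had 3.66 and 3.89 with TGFb, against 7.38 and 6.36 without (−3.09 ± 0.35, adjusted p = 0.0327). TFCP2L1, a factor related to the grainyhead family and found in collecting ducts, differed by −2.17 ± 0.15 (adjusted p = 0.00988). KLF5 (−1.05 ± 0.25), OVOL2 (−0.64 ± 0.19) and FOXA2 (−0.58 ± 0.23) did not pass.

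Of 9 regulators of splicing, 1 fell (background 1.44%). ESRP1, which directs epithelial splice forms, had 7.40 and 7.77 with TGFb, against 9.31 and 9.60 without (−1.87 ± 0.20, adjusted p = 0.0289). The related ESRP2 had 4.59 and 4.53 with TGFb, against 5.63 and 5.48 without, and just missed the threshold (−0.999 ± 0.150, adjusted p = 0.0569). RBM47, an RNA-binding protein of epithelia, likewise missed it (−1.33 ± 0.21, adjusted p = 0.064). RBFOX2, associated with mesenchymal splicing, differed by 0.53 ± 0.19 (adjusted p = 0.298). For ESRP2 and RBM47 each TGFb array lay below either untreated array.

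**Figure D2:**
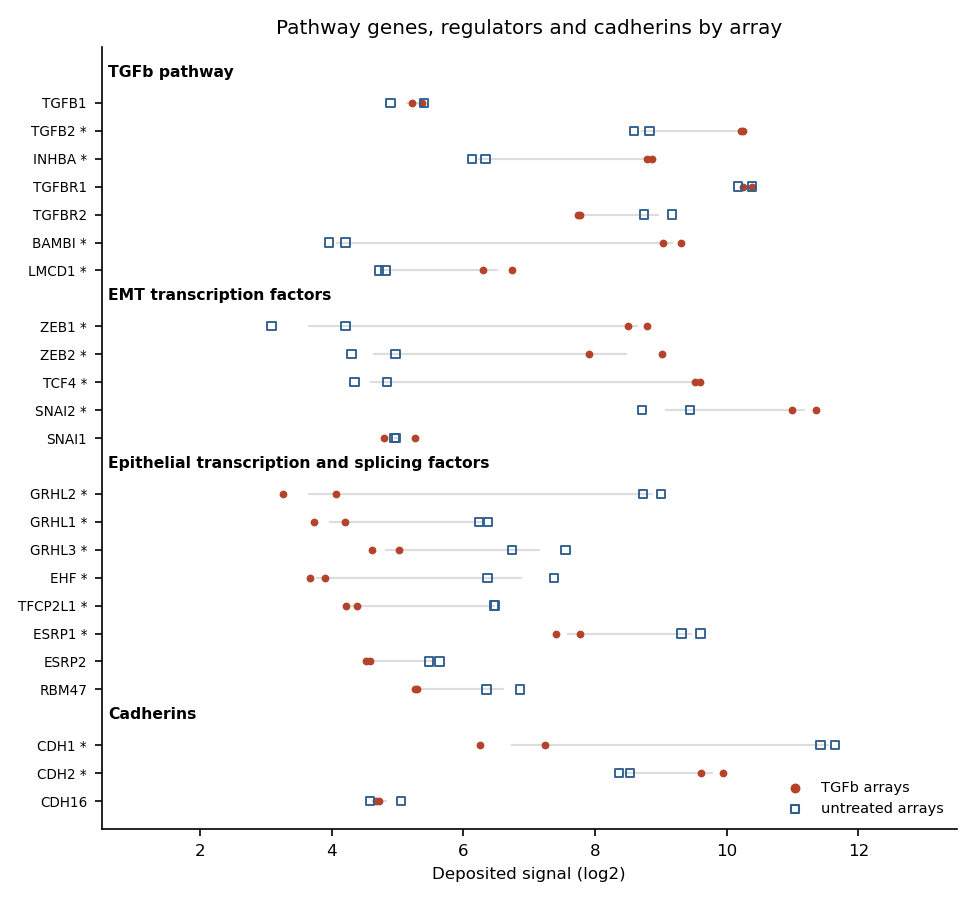
Deposited log2 signal (x axis) of pathway genes, transcription and splicing factors and cadherins on each TGFb array (filled circles) and untreated array (open squares), with a line joining the group means and an asterisk after genes that rose or fell. The groups are far apart for ZEB1, TCF4, BAMBI and GRHL2 and overlap for SNAI1, TGFB1 and TGFBR1.

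Of 10 measured cadherin genes 1 fell (background 1.44%) and 1 rose (background 0.966%). CDH1 fell by 4.79 ± 0.35 (adjusted p = 0.0113). CDH2, encoding the N-cadherin of mesenchymal and neural cells, had 9.94 and 9.61 with TGFb, against 8.37 and 8.53 without (1.33 ± 0.18, adjusted p = 0.0472). This call ended with the replicate number as a block (adjusted p = 0.0510 from limma) and under quantile normalization. A second probe set of CDH2 rose as well (1.52 ± 0.20, adjusted p = 0.0423). CDH6, a cadherin of kidney development, differed by 0.83 ± 0.17 (adjusted p = 0.11).

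Catenins, which bind cadherins inside the cell, and nectins, adhesion proteins of the same junction, gave 9 of 9 measured genes below 0. Their median was −0.63, and 1 fell (background 1.44%). That gene was AFDN, encoding the nectin-binding scaffold afadin, with 7.995 and 7.84 with TGFb, against 9.60 and 9.25 without (−1.51 ± 0.18, adjusted p = 0.0368). CTNNB1, encoding β-catenin, had 10.73 and 10.86 with TGFb, against 11.39 and 11.12 without (−0.46 ± 0.17, adjusted p = 0.307). CTNNA1 (−0.71 ± 0.16) and CTNND1 (−0.69 ± 0.17), encoding α-catenin and p120-catenin, did not pass either.

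At tight junctions, 5 of 27 measured membrane protein genes fell (background 1.44%) and none rose. CLDN1, a barrier-forming claudin, had 5.84 and 6.86 with TGFb, against 10.81 and 10.92 without (−4.52 ± 0.35, adjusted p = 0.0133). OCLN, encoding occludin, had 4.41 and 5.04 with TGFb, against 8.95 and 8.71 without (−4.11 ± 0.26, adjusted p = 0.00741). Its chromosomal neighbour MARVELD2, encoding tricellulin, which seals junctions where 3 cells meet, had 3.70 and 4.16 with TGFb, against 6.28 and 6.17 without (−2.30 ± 0.21, adjusted p = 0.018). CLDN7 fell by 3.06 ± 0.27 and CLDN8 by 1.43 ± 0.20 (adjusted p = 0.0498), and the CLDN8 call ended under 5 settings that keep all arrays, among them the replicate block (adjusted p = 0.0520). The list's median was −0.15, close to that of all genes.

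In the cytoplasmic plaque beneath, of 22 scaffold and polarity genes, 4 fell (background 1.44%), none rose and the median was −0.46. PATJ, a scaffold of the Crumbs polarity complex, had 6.58 and 6.95 with TGFb, against 10.25 and 9.94 without (−3.33 ± 0.21, adjusted p = 0.00741), and its second probe set fell too (−2.87 ± 0.22). PARD6B, of the PAR complex at the apical border, fell by 2.38 ± 0.30, the tight junction adaptor CGN (cingulin) by 1.75 ± 0.18 and the scaffold MAGI3 by 1.39 ± 0.20, whose call ended under quantile normalization and median centring. TJP1, encoding the central scaffold ZO-1, had 10.43 and 10.41 with TGFb, against 10.81 and 10.75 without (−0.36 ± 0.14, adjusted p = 0.345). DLG2, a scaffold best known from synapses, was the one member over 1 log2 unit higher and did not pass (1.82 ± 0.32, adjusted p = 0.0782).

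Desmosomes, the spot junctions that anchor keratin filaments, were listed with hemidesmosomes. Together they gave 7 decreases among 20 measured genes (background 1.44%) and no increase, with a median of −0.52. The desmosomal cadherin DSG3 had 7.31 and 7.67 with TGFb, against 10.53 and 10.52 without (−3.03 ± 0.18, adjusted p = 0.00685). DSC2, a cadherin of the desmocollin type, had 8.19 and 8.46 with TGFb, against 10.90 and 10.87 without (−2.56 ± 0.17, adjusted p = 0.00815). Replicates lay close together and the groups were over 2 log2 units apart in both genes. DSC3 next to DSC2 in gene order fell by 1.98 ± 0.19, the plaque proteins DSP by 2.16 ± 0.20 and PPL by 2.53 ± 0.23, and the tetraspan protein PERP by 1.72 ± 0.21. ITGB4, the β4 chain of the hemidesmosome integrin, fell by 2.05 ± 0.22, while its partner ITGA6 differed by −1.08 ± 0.22 (adjusted p = 0.114).

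Of 12 measured keratin genes, KRT19 and KRT7 fell (background 1.44%) and 10 did not pass. KRT19 had 4.36 and 5.23 with TGFb, against 10.33 and 10.17 without (−5.46 ± 0.31, adjusted p = 0.00616), and KRT7 had 5.49 and 5.19 with TGFb, against 8.13 and 8.38 without (−2.92 ± 0.19, adjusted p = 0.00809). The keratin pair of simple epithelia did not pass. KRT18 had 10.45 and 10.47 with TGFb, against 10.79 and 10.97 without (−0.42 ± 0.15, adjusted p = 0.299), and KRT8 differed by −0.61 ± 0.15 (adjusted p = 0.171). The 95% intervals of the differences, −0.81 to −0.03 for KRT18 and −1.01 to −0.21 for KRT8, do not reach the sizes seen for KRT19 and KRT7. The difference between these keratins was not tested.

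The apical domain gave 9 decreases among 28 measured genes (background 1.44%), no increase, and a median of −0.73. MAL2, a raft protein of apical transport, had 4.53 and 6.27 with TGFb, against 10.70 and 11.34 without (−5.62 ± 0.60, adjusted p = 0.0269). PLS1, which bundles actin in microvilli, had 4.26 and 4.12 with TGFb, against 10.55 and 8.88 without (−5.53 ± 0.54, adjusted p = 0.0225). Both are separated by over 4 log2 units although replicates of 1 group differed by more than 1. RAB25, a GTPase of apical recycling, fell by 3.71 ± 0.20, the adhesion molecule EPCAM by 3.32 ± 0.42, and AP1M2, an epithelial sorting adaptor, by 2.11 ± 0.23. The myosins MYO5C and MYO5B fell by 2.07 ± 0.15 and 1.42 ± 0.18. PROM2, on membrane protrusions, fell by 1.86 ± 0.17 and the mucin MUC1 by 1.34 ± 0.18, whose call ended under median centring. MAL (−2.53 ± 0.43) and PROM1 (−2.47 ± 0.39) had groups over 1 log2 unit apart and did not pass.

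Proteases and protease inhibitors of the epithelial surface had the lowest median of all lists, −2.08. Of 8 measured genes 7 lay below 0 and 4 fell (background 1.44%). SPINK5, a serine protease inhibitor of stratified epithelia, was the largest decrease among named genes, with 4.29 and 6.51 with TGFb, against 11.81 and 11.97 without (−6.49 ± 0.71, adjusted p = 0.0291). Its TGFb arrays differed by over 2, and both lay over 5 log2 units below the untreated arrays. SPINT2 and SPINT1, inhibitors of matriptase and related enzymes, fell by 2.94 ± 0.19 and 1.72 ± 0.17, and the protease TMPRSS4 by 3.22 ± 0.30. ST14, matriptase itself, differed by −0.46.

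Over the 9 epithelial lists together, from transcription factors to surface proteases, 150 genes were measured. Of them 38 fell (25.3%), against 1.44% of all named genes, and 1 rose, the mesenchymal cadherin CDH2. This share does not test the lists independently, since they were chosen with earlier results of these data known. The median of the 150 was −0.44, and 122 lay below 0 by any amount.

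Among 23 proteoglycan genes 4 rose (background 0.966%) and 1 fell (background 1.44%), with a median of 0.02. The 4 that rose, EPYC, KERA, LUM and DCN, are consecutive measured genes in the RefSeq gene order of assembly UU_Cfam_GSD_1.0, and all encode small leucine-rich proteoglycans, which bind and space collagen fibrils. KERA, encoding keratocan, best known from cornea, had 11.06 and 10.71 with TGFb, against 3.37 and 3.54 without (7.43 ± 0.18, adjusted p = 0.00228). LUM differed by 7.68 ± 0.32 (adjusted p = 0.00381), a fold difference of 206. DCN, encoding decorin, had 7.31 and 8.54 with TGFb, against 2.96 and 3.20 without (4.85 ± 0.42, adjusted p = 0.0163). EPYC, encoding epiphycan, had 6.12 and 5.49 with TGFb, against 3.55 and 3.402 without (2.33 ± 0.25, adjusted p = 0.0264).

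The measured genes on either side did not pass. ATP2B1, a calcium pump next to EPYC, differed by −0.16 ± 0.16 (adjusted p = 0.715), and LOC482600, next to DCN, by 0.01 ± 0.31 (adjusted p = 0.995). KITLG, encoding the ligand of KIT, lies 4 measured genes before EPYC and fell by 1.80 ± 0.22 (adjusted p = 0.0366). The 4 proteoglycan genes were the longest run of neighbouring genes with the same call among the 15224 that could be placed in order, where 18 runs of at least 2 were found, 6 higher and 12 lower. Other small leucine-rich proteoglycans in the list did not pass, among them BGN (0.61) and ASPN (−0.60). SRGN, an intracellular proteoglycan of secretory granules, fell by 1.96 ± 0.25 (adjusted p = 0.0421).

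**Figure D3:**
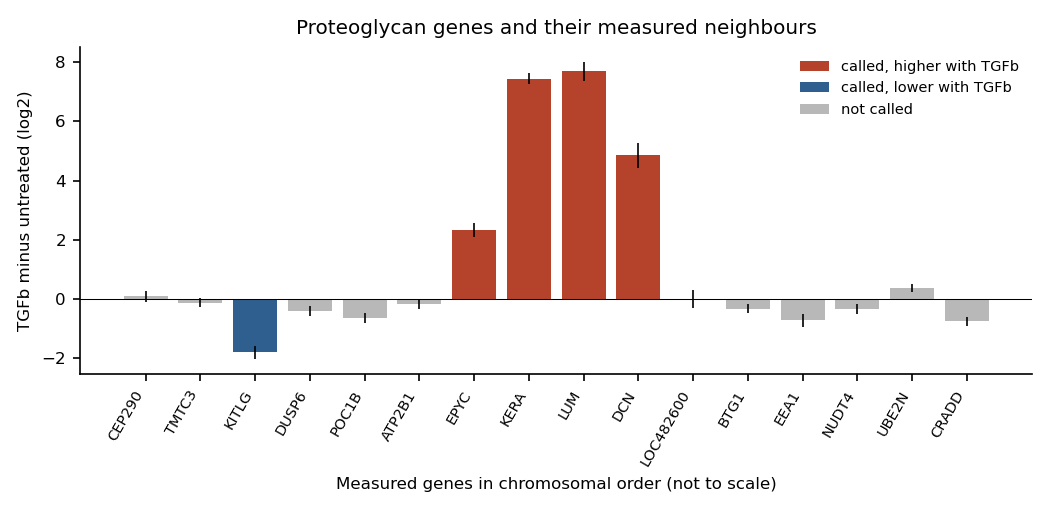
TGFb minus untreated (log2, bars, with standard errors of the fit) for EPYC, KERA, LUM, DCN and the 6 measured genes on each side, in chromosomal order and not to scale. The 4 proteoglycan genes rose (2.33 to 7.68), KITLG fell, and the other neighbours did not pass.

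Of 36 measured collagen genes 3 rose (background 0.966%), none fell and the median was −0.01. All 3 encode chains of the fibrillar collagens I and III. COL1A2 had 9.31 and 9.21 with TGFb, against 5.39 and 5.21 without (3.96 ± 0.15, adjusted p = 0.00381). COL3A1 had 8.46 and 8.04 with TGFb, against 5.56 and 5.42 without (2.76 ± 0.20, adjusted p = 0.0109). COL1A1 had 7.46 and 7.25 with TGFb, against 5.32 and 4.54 without (2.43 ± 0.29, adjusted p = 0.0352). COL5A2, a minor chain of the same fibrils, differed by 1.40 ± 0.24 (adjusted p = 0.0718) and COL15A1 by 1.26 ± 0.25 (adjusted p = 0.106).

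Enzymes that modify collagen lay higher as a list, 16 of 19 measured genes above 0 with a median of 0.56, and 3 rose (background 0.966%). P3H2, a prolyl 3-hydroxylase, had 8.70 and 9.05 with TGFb, against 5.44 and 5.55 without (3.38 ± 0.18, adjusted p = 0.00571). A second probe set of P3H2 differed by 0.45 ± 0.25. LOX, the lysyl oxidase that starts collagen crosslinking, had 10.97 and 10.67 with TGFb, against 8.74 and 8.27 without (2.31 ± 0.23, adjusted p = 0.0221). P4HA1, a catalytic subunit of prolyl 4-hydroxylase, rose by 1.05 ± 0.14 (adjusted p = 0.0468), a call that ended with the replicate number as a block (adjusted p = 0.0575) and under quantile normalization. PLOD1 (1.71 ± 0.29), PCOLCE2 (1.49 ± 0.23) and FKBP10 (1.24 ± 0.21) did not pass.

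In the matricellular and elastic fibre list of 28, SPARC alone rose (background 0.966%) and the median was −0.02. SPARC differed by 6.23 ± 0.28 (adjusted p = 0.00423). FN1, encoding fibronectin, had 12.19 and 11.96 with TGFb, against 11.90 and 11.05 without (0.60 ± 0.31, adjusted p = 0.465). SPP1, encoding osteopontin, had 5.02 and 7.27 with TGFb, against 9.94 and 9.63 without. Its groups were over 2 log2 units apart, but the TGFb arrays differed as much and it did not pass (−3.64 ± 0.72, adjusted p = 0.104).

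Among 30 matrix proteases and inhibitors 2 rose (background 0.966%) and 1 fell (background 1.44%). ADAMTS6, a secreted metalloprotease, had 9.04 and 8.88 with TGFb, against 6.52 and 5.93 without (2.73 ± 0.24, adjusted p = 0.0174). SERPINB2, an inhibitor of plasminogen activators, differed by 1.89 ± 0.18 (adjusted p = 0.0196). TIMP3, a matrix-bound metalloprotease inhibitor, had 7.19 and 8.07 with TGFb, against 10.66 and 10.96 without (−3.18 ± 0.32, adjusted p = 0.0238). ADAM12, MMP1 and MMP14 differed by 1.67 ± 0.31, 1.64 ± 0.24 and 1.54 ± 0.30 and did not pass, though each had groups at least 1 log2 unit apart. The gelatinases MMP2 (0.05 ± 0.16) and MMP9 (0.44 ± 0.15) did not pass.

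Of 16 laminin and basement membrane genes LAMA4, the α4 laminin chain of mesenchymal tissues, rose (5.58 and 5.47 with TGFb, against 3.34 and 3.73 without, difference 1.99 ± 0.19, adjusted p = 0.0206). No other member passed (background for rises, 0.966%). ITGB4 and ITGB6, which fell, were counted with the hemidesmosome and TGFb activation lists, and none of the 15 other measured integrin chains passed. ITGA5, the α5 chain of the fibronectin receptor, had 7.53 and 6.61 with TGFb, against 5.09 and 4.86 without (2.10 ± 0.33, adjusted p = 0.0613).

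Contractile and filament genes lay mostly higher, 17 of 25 measured with a median of 0.38, and 2 rose (background 0.966%). CALD1, encoding the actin-binding caldesmon, had 10.03 and 10.14 with TGFb, against 6.99 and 5.64 without (3.77 ± 0.45, adjusted p = 0.035). MYOCD, the cardiac and smooth muscle coactivator myocardin, had 7.07 and 7.02 with TGFb, against 5.04 and 5.57 without (1.74 ± 0.22, adjusted p = 0.0394). Classic myofibroblast genes did not pass, with ACTA2, α-smooth muscle actin, at 7.85 and 6.83 with TGFb, against 6.24 and 5.04 without (1.70 ± 0.51, adjusted p = 0.227). TAGLN, encoding transgelin, differed by 2.004 ± 0.41 (adjusted p = 0.113). VIM, encoding vimentin, had 12.26 and 12.28 with TGFb, against 11.88 and 11.90 without (0.38 ± 0.14, adjusted p = 0.318). PALLD, encoding the actin-crosslinking palladin, was among the 15 largest increases, with 8.90 and 8.85 with TGFb, against 4.86 and 4.63 without (4.13 ± 0.16, adjusted p = 0.00381). Its second probe set differed by −0.18 ± 0.15.

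**Figure D4:**
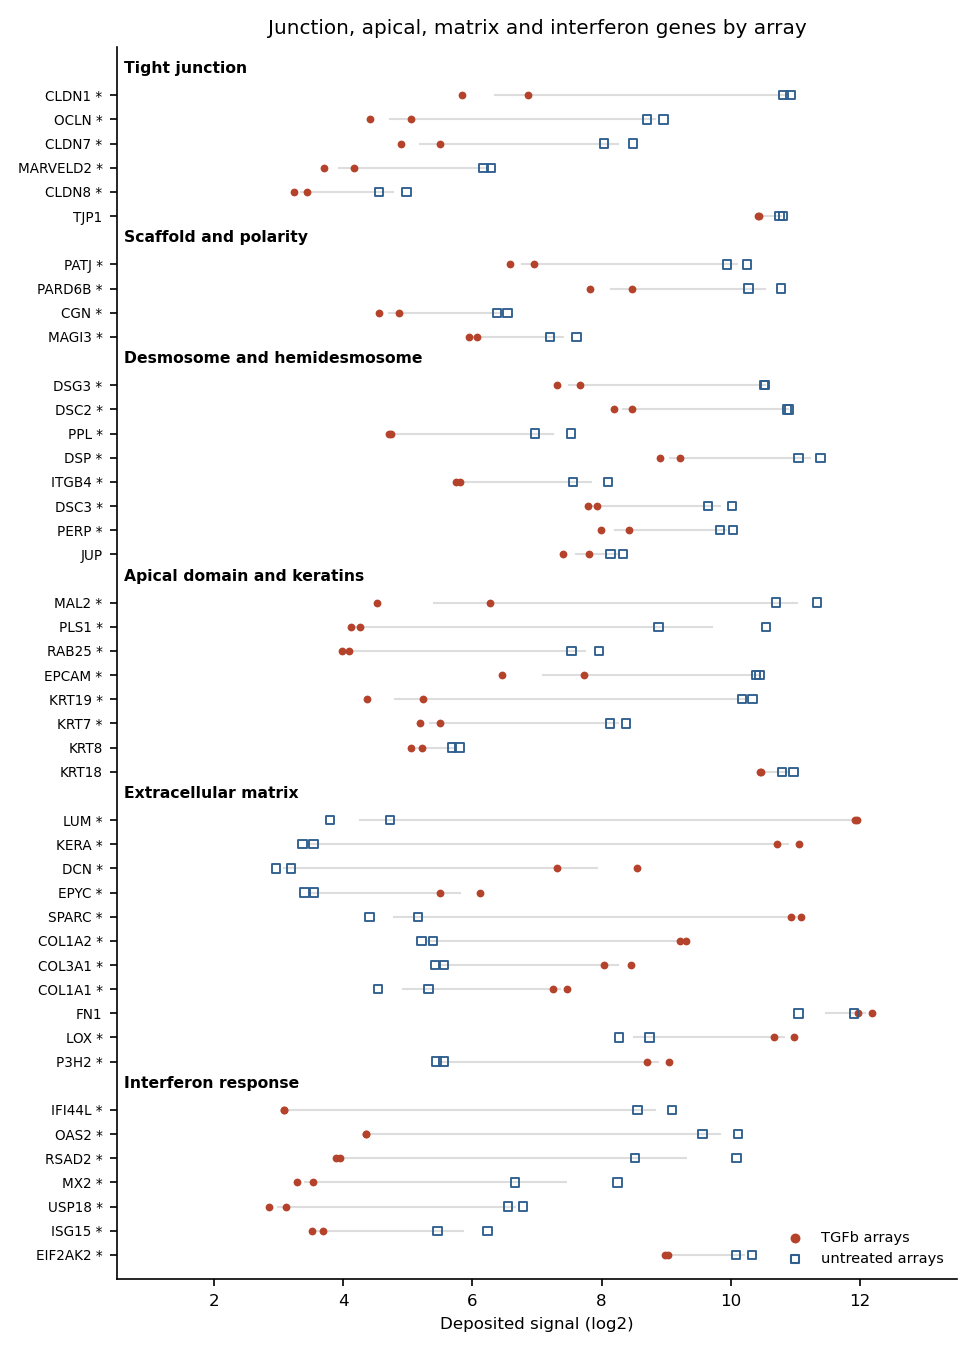
Deposited log2 signal (x axis) of junction, apical, keratin, matrix and interferon genes on each TGFb array (filled circles) and untreated array (open squares), with a line joining the group means and an asterisk after genes that rose or fell. TJP1, KRT8, KRT18, JUP and FN1 carry no asterisk, and the matrix genes with one lie to the right with TGFb while the junction and interferon genes with one lie to the left.

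In the growth factor and receptor lists 1 or 2 members of each passed, against 2.4% of all named genes. FGFBP1, a carrier that releases fibroblast growth factors from matrix, had 3.14 and 3.59 with TGFb, against 9.82 and 9.60 without (−6.35 ± 0.21, adjusted p = 0.00345). It was the only one of 14 genes in the FGF list to pass, and the receptors FGFR1 (0.37 ± 0.16) and FGFR2 (−0.36 ± 0.30), measured per gene and not per splice form, did not. Among 12 EGF family genes the receptor ERBB3 fell and its ligand NRG1 rose. ERBB3 had 4.39 and 4.29 with TGFb, against 7.06 and 7.16 without (−2.77 ± 0.15, adjusted p = 0.00571). NRG1, encoding neuregulin 1, had 9.46 and 9.20 with TGFb, against 7.34 and 7.67 without (1.82 ± 0.19, adjusted p = 0.0266). EGFR differed by −1.13 ± 0.21 (adjusted p = 0.0895).

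Of 27 other receptor tyrosine kinases and ligands, KITLG and PDGFRA fell. PDGFRA, a receptor usually read as a fibroblast marker, had 5.39 and 5.37 with TGFb, against 8.39 and 7.52 without (−2.58 ± 0.31, adjusted p = 0.0352). The collagen receptor DDR2 had 7.60 and 7.54 with TGFb, against 5.75 and 6.39 without, and did not pass (adjusted p = 0.0668). VEGFC, a lymphatic growth factor, had 4.02 and 7.60 with TGFb, against 7.28 and 9.10 without, so its groups overlapped (−2.38 ± 1.26, adjusted p = 0.478). IGFBP4 alone rose among 7 insulin-like growth factor binding proteins (1.35 ± 0.14, adjusted p = 0.0265).

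In the Wnt list of 39 genes WNT5A alone rose, so 2.56% of the list passed, near the 2.4% of all named genes. WNT5A had 6.90 and 6.54 with TGFb, against 4.23 and 4.50 without (2.36 ± 0.20, adjusted p = 0.0159). It encodes a ligand of the β-catenin-independent branch, and the list's median was −0.03. Of 38 axon guidance genes 1 rose (background 0.966%) and 2 fell (background 1.44%). SEMA7A, a membrane-anchored semaphorin, rose (2.33 ± 0.32, adjusted p = 0.0474), a call that ended under robust moderation and under quantile normalization. The receptors EPHA1 (−1.79 ± 0.20) and PLXNB1 (−1.49 ± 0.17) fell. SEMA3E, a secreted semaphorin, had 3.50 and 6.25 with TGFb, against 9.15 and 9.39 without, and did not pass (−4.40 ± 0.88, adjusted p = 0.104). EPHB2 had 7.38 and 5.79 with TGFb, against 4.41 and 4.01 without (2.37 ± 0.53, adjusted p = 0.131). NEGR1, an IgLON adhesion protein of neurons, rose by 5.92 ± 0.14 (adjusted p = 0.00228), with 9.48 and 9.51 with TGFb, against 3.56 and 3.59 without. The other 16 members of the adhesion list did not pass (background for rises, 0.966%).

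Interferon-induced genes detect or block viruses. Of 32 measured sensors and effectors 14 fell (background 1.44%), none rose and the median was −1.08. OAS2, an enzyme activated by double-stranded RNA, had 4.350 and 4.347 with TGFb, against 10.11 and 9.56 without (−5.49 ± 0.22, adjusted p = 0.00381). IFI44L had 3.08 on both TGFb arrays, against 9.09 and 8.55 on the untreated arrays (−5.74 ± 0.22, adjusted p = 0.00381). RSAD2, encoding viperin, had 3.89 and 3.96 with TGFb, against 10.09 and 8.52 without (−5.38 ± 0.51, adjusted p = 0.0206). DDX60, an antiviral helicase outside the list, had 3.08 and 3.07 with TGFb, against 9.27 and 7.35 without (−5.24 ± 0.62, adjusted p = 0.0344).

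Smaller decreases took in the RNA sensor RIGI (−2.30 ± 0.29, listed under its older symbol DDX58), the ubiquitin-like ISG15 (−2.25 ± 0.29), the deISGylase USP18 (−3.68 ± 0.18) and the kinase EIF2AK2 (−1.20 ± 0.16), whose call ended under median centring. Neighbouring pairs fell together, IFI44 (−4.03 ± 0.24) with IFI44L, and PARP9 (−3.57 ± 0.26) with DTX3L (−3.15 ± 0.37). HERC6, an interferon-induced relative of ubiquitin ligases, fell by 3.45 ± 0.27, the ADP-ribosyltransferase PARP14 by 3.10 ± 0.34 and OAS1, a second enzyme of the OAS family, by 1.67 ± 0.19. MX2 fell by 4.05 ± 0.52, while MX1 missed the threshold (−2.33 ± 0.48, adjusted p = 0.115). In all 14 genes untreated replicate 1 lay above untreated replicate 2, by a median of 0.54, while the TGFb arrays differed by a median of −0.06. Each of the 14 had groups at least 1 log2 unit apart. What part this spread has in the result was not tested.

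The regulators of the same response did not pass, 0 of 19 measured IRF, STAT and receptor genes at the adjusted threshold, and their median was −0.25. IRF9, the DNA-binding partner of the STAT complex, had 5.38 and 5.42 with TGFb, against 6.25 and 6.14 without (−0.80 ± 0.15, adjusted p = 0.0871). The receptor chain IFNGR2 differed by −1.02 ± 0.15 (adjusted p = 0.0536) and IRF1 by −1.33 ± 0.40 (adjusted p = 0.232). IRF7, which amplifies interferon production, differed by −0.26 ± 0.16.

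Among 35 cytokine and TNF family genes 3 fell (background 1.44%) and 1 rose (background 0.966%). TNFSF4, encoding the T-cell costimulator OX40 ligand, had 8.32 and 8.29 with TGFb, against 4.03 and 3.91 without (4.33 ± 0.15, adjusted p = 0.00345). Its relative TNFSF18, encoding GITR ligand, had 9.23 and 8.87 with TGFb, against 4.51 and 6.51 without. Its untreated arrays differed by over 1 and it did not pass (3.54 ± 0.65, adjusted p = 0.0873). The interferon-induced chemokine CXCL10 fell by 2.44 ± 0.28, the growth factor CSF2 by 2.35 ± 0.31 and the interleukin 1 antagonist IL1RN by 1.78 ± 0.19.

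In the retinoid list 1 gene fell (background 1.44%) and 1 rose (background 0.966%). ALDH1A1, which makes retinoic acid, had 3.96 and 4.12 with TGFb, against 9.91 and 9.34 without (−5.59 ± 0.23, adjusted p = 0.00381), and RBP4, the retinol carrier, rose by 2.93 ± 0.23. No other gene of the 18 measured passed. RASSF6, a member of the RASSF tumour suppressor family, had 2.88 and 3.14 with TGFb, against 9.41 and 8.77 without (−6.08 ± 0.26, adjusted p = 0.00381). RASEF, an atypical RAB, had 3.29 and 3.21 with TGFb, against 9.13 and 8.80 without (−5.71 ± 0.18, adjusted p = 0.00338). No other gene of the RAB, RASSF and small GTPase list of 27 passed (background for decreases, 1.44%). RAB25, which fell, was counted with the apical genes.

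Of 28 cell-surface glycosyltransferases 1 rose and 2 fell (background 0.966% and 1.44%), with a median of −0.20. The sialyltransferase ST8SIA6 had 5.07 and 5.77 with TGFb, against 10.91 and 10.57 without (−5.32 ± 0.28, adjusted p = 0.00571). ST8SIA1, which makes the ganglioside GD3, had 5.80 and 6.13 with TGFb, against 3.55 and 3.30 without (2.54 ± 0.19, adjusted p = 0.0125). GALNT3, which starts mucin-type O-glycans, fell by 3.54 ± 0.32. Of 31 tubule transport genes the carbonic anhydrases CA12 (3.56 ± 0.41) and CA2 (1.39 ± 0.16) rose (background 0.966%) and none fell. SLC2A3, a glucose transporter, fell by 3.17 ± 0.28 and EGLN3, an oxygen-sensing prolyl hydroxylase, by 2.34 ± 0.24. They were the 2 calls among 27 hypoxia and glycolysis genes (background 1.44%). GPNMB, a glycoprotein of lysosomes and melanosomes, had 9.84 and 9.73 with TGFb, against 4.79 and 4.72 without (5.03 ± 0.15, adjusted p = 0.00338). The other 18 genes of the lysosome and melanosome list did not pass (background for rises, 0.966%).

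**Figure D5:**
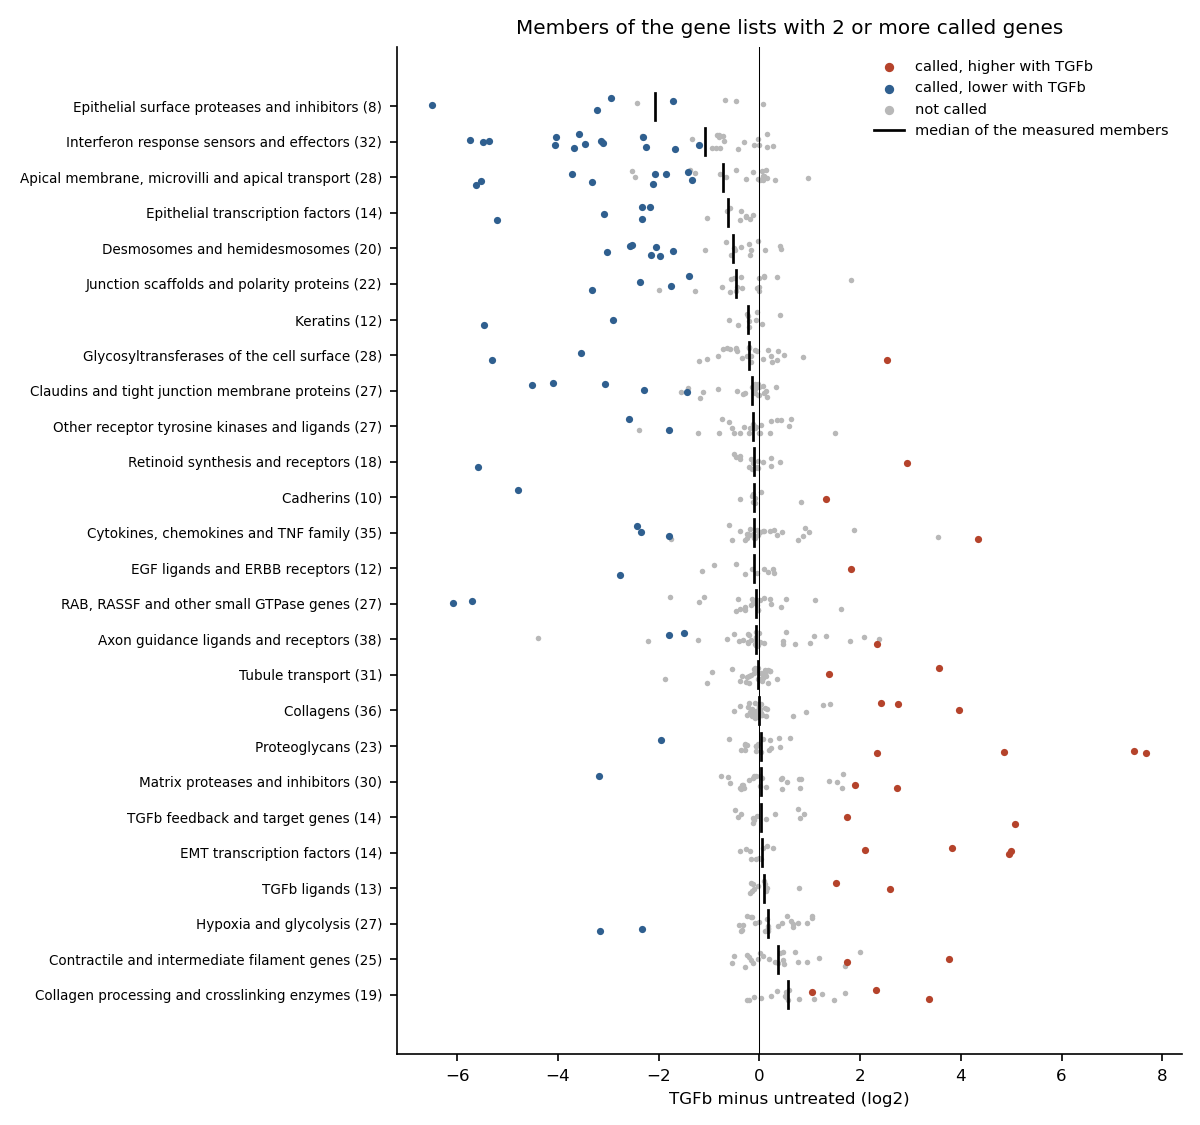
TGFb minus untreated (log2, x axis) for every measured member of the gene lists with at least 2 genes that rose or fell, with the number measured in brackets, red for genes that rose, blue for genes that fell, grey for the rest and a black bar for the list's median. Medians run from −2.08 for epithelial surface proteases and inhibitors to 0.56 for collagen processing enzymes, and the lists with a median near 0 hold single far-off members.

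Of 31 measured cell cycle genes 1 passed, 3.23% of the list, near the 2.4% of all named genes, and the median was 0.28. That gene was CCND2, encoding cyclin D2, which fell (8.87 and 8.59 with TGFb, against 10.25 and 10.09 without, difference −1.44 ± 0.17, adjusted p = 0.0359). MKI67, the proliferation antigen, differed by −0.11 ± 0.15 (adjusted p = 0.813). No gene of 13 in the DNA methylation list passed, and the largest difference was 1.18 ± 0.22 for TET1, which oxidises methylcytosine (adjusted p = 0.0902). None of 19 renal lineage genes passed, among them the nephron factors PAX2 (−0.01 ± 0.25) and PAX8 (0.59 ± 0.15). None of 6 measured housekeeping genes passed, and ACTB, encoding β-actin, differed by 0.25 ± 0.25.

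Markers of other cell types did not pass, where 2.4% of all named genes did. The counts were 0 of 7 for leukocytes, 0 of 8 for endothelium and 0 of 7 for neurons and glia. For muscle, cartilage, bone and fat the count was 0 of 9. In lists this short, counts of 0 are near the share of all named genes. The summed linear signal of the leukocyte markers was 104 and 108 on the TGFb arrays, against 124 and 112 on the untreated arrays. For the endothelial markers it was 116 and 128, against 127 and 116, and for the neural markers 185 and 181, against 218 and 213. PTPRC, which defines leukocytes, had 2.84 and 2.97 with TGFb, against 2.83 and 2.95 without. The fourth list summed to 1065 and 1010, against 1622 and 1228, with PPARG, a nuclear receptor of fat cells, its brightest member (−1.29 ± 0.24, adjusted p = 0.0917).

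Among genes that passed, the widest gaps between the TGFb arrays were those of SPINK5, MAL2, KCNH7, SH3YL1 and TMEM71. SH3YL1, an adaptor with an SH3 domain, had 3.18 and 4.67 with TGFb, against 9.97 and 9.93 without (−6.02 ± 0.49, adjusted p = 0.0144). KCNH7, a potassium channel, had 7.72 and 6.05 with TGFb, against 2.87 and 2.89 without (4.00 ± 0.54, adjusted p = 0.0465). Its second probe set differed by 0.02 ± 0.15, and the call of KCNH7 ended under robust moderation and with probe sets averaged. ZNF385B, a zinc finger protein among the 15 largest increases, had 7.79 and 6.84 with TGFb, against 3.72 and 3.23 without (3.84 ± 0.36, adjusted p = 0.0206), and its second probe set differed by 0.30 ± 0.18. Of the 17 genes that passed and have several probe sets, 18 further probe sets could be read, of which 7 passed in the same direction and 15 had the same sign. Between the untreated arrays the widest were those of DDX60, LOC482174, MX2, PLS1 and RSAD2, 3 of which are antiviral genes. Among the 38 epithelial list genes that fell, TGFb replicate 2 kept the higher signal in 23 and TGFb replicate 1 in 15.

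The single arrays of the other conditions give the marker genes these values. CDH1 and GRHL2 read 11.3 and 8.70 on the withdrawal array, near their untreated values, and ZEB1, SPARC and LUM read 3.39, 4.72 and 7.08 there. On the 5-AZA array GRHL2 read 4.16, ZEB1 8.74, SPARC 11.68 and LUM 12.04, near their TGFb values. No test was made on these single arrays here.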

How the data were processed

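Total RNA of MDCK cells was hybridised to single-colour Affymetrix arrays. The deposited value table holds 1 value per probe set and array, made with Affymetrix Expression Console 1.2 per the submitters' processing notes. For summary method, background correction, log base and genome build the entry is: not given in the sources used here. As deposited, values were read as log2 signals from their range (0.937 to 13.1) and not transformed further.

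The test was limma's moderated test (version 3.58.1, R 4.3.3; lmFit and eBayes at default settings, with no trend and no robust option) on group means over all 6 arrays, so the spread comes from the 2 TGFb and 2 untreated arrays (2 residual and 3.10 prior degrees of freedom). P-values were adjusted by Benjamini-Hochberg over 32293 probe sets, with a threshold of 0.05. The fit was tested on simulated data. Of the probe sets, 16545 had 1 platform symbol, 370 several and 15378 none. Symbols were updated through gene identifiers to RefSeq where these matched, for 15820 probe sets.

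Genes are described in 50 lists with 996 symbols, 914 of them measured. Members and lists were chosen with earlier results of these data known. Named are the 5 markers, the 15 largest increases and decreases, the members of each list that passed with the 3 largest that did not, a set of textbook genes, and the 5 genes with the widest gap between arrays of each group. ATP2B1 and LOC482600 were added for their position, JUP and PTPRC as reference points. A promoter motif search was not run, since no sequence was used here. Arrays with the same number were not treated as pairs: their deviations from the group means correlated at 0.0988, and the labels give them only a number. Alternatives were trend, robust moderation, quantile normalization, median centring, filters on probe sets, a replicate block, a gap rule, averaged probe sets and leaving out each array.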

Additional observations from a re-analysis of the deposited data

How the results depend on the processing

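With all 4 arrays of the comparison kept, the count of probe sets that passed was 531 (223 higher, 308 lower). Dropping the dimmer 50% of probe sets, by mean over all arrays, gave 1001 (423 higher, 578 lower), and testing named genes only gave 1228 (570 higher, 658 lower); both test fewer features over a different spread. Leaving out 1 array gave 0 to 129 in all, 0 to 43 higher and 0 to 87 lower, with 1 residual degree of freedom and a lone array assumed to vary like the other group. Without TGFb replicate 1 the count was 0, with 3138 at an unadjusted limma p under 0.05, and the cause was not tested. The replicate block over the arrays' numbers gave 712 (299 higher, 413 lower), of which 496 are among the 531. The counts under quantile normalization (483), median centring (488), robust moderation (517), an intensity trend (635), identical values counted once (561) and a fit of 4 arrays alone (531) were within 1.5 times the 531. Leaving out 1 array cannot change the sign of a gene whose groups do not overlap. None of the 383 named genes that passed changed sign under these settings or with probe sets averaged, as far as tested there. Among the 117 of them that the naming rule picked, with every array kept, calls ended for CLDN8 (robust, quantile, centring, block, averaged probe sets), GRHL3 (robust, quantile, centring), SNAI2 and SEMA7A (robust, quantile), MAGI3 (quantile, centring), CDH2 and P4HA1 (quantile, block), KCNH7 (robust, averaged), and EIF2AK2 and MUC1 (centring). Over all 383, 37 calls ended under quantile normalization, 31 under median centring, 25 under the block, 13 under robust moderation, 12 with averaged probe sets and 2 under the trend. Averaging aside, 324 of the 383 kept their call under every setting that keeps all arrays, and 27 of the 383 kept it without each array other than TGFb replicate 1.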

Other observations

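Genes of sphingolipid synthesis, a list chosen after values were seen, gave 6 decreases and 2 increases among 29 measured genes, with a median of −0.17 (over all named genes, 1.44% fell and 0.966% rose). SPTSSB, a small subunit of the enzyme that starts the pathway, had 3.06 and 3.18 on the TGFb arrays, against 8.20 and 7.71 on the untreated arrays (−4.83 ± 0.21). UGT8, which makes galactosylceramide, had 6.27 and 5.56 with TGFb, against 10.47 and 9.85 without (−4.25 ± 0.33), and B4GALT6, a lactosylceramide synthase, fell by 3.53 ± 0.15. CERS3, FA2H and SPTLC3 fell by 2.32 ± 0.32, 2.02 ± 0.28 and 1.73 ± 0.23. The calls of CERS3 and FA2H ended under robust moderation and quantile normalization, and that of FA2H also under median centring. DEGS1, which introduces the double bond of ceramide, rose by 1.13 ± 0.15, as did the ganglioside enzyme ST8SIA1.

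Genes of collagen secretion and folding in the endoplasmic reticulum, also chosen after values were seen, gave 8 increases (background 0.966%) and no decrease among 32 measured, with 29 above 0 and a median of 0.45. FKBP7, a prolyl isomerase, had 10.57 and 10.72 with TGFb, against 8.57 and 8.36 without (2.18 ± 0.16). CREB3L1, a transcription factor of secretory genes, rose by 1.83 ± 0.18, LARP6, which binds collagen mRNAs, by 1.82 ± 0.24, and the coat protein SEC24D by 1.15 ± 0.14. FKBP11, also among those that rose (1.09 ± 0.15), lost its call with the replicate number as a block. In a list of glucose uptake and thioredoxin-interacting genes chosen the same way, 4 of 16 measured genes fell (background 1.44%) and none rose. TXNIP, which restrains glucose uptake, had 9.18 on both TGFb arrays, against 12.08 and 11.92 on the untreated arrays (−2.82 ± 0.15), while the transporters SLC2A3 and SLC2A12 and the TXNIP relative ARRDC4 fell by 3.17 ± 0.28, 2.80 ± 0.31 and 1.82 ± 0.20.

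Another 5 genes were picked one by one after values were seen, so no share of a list stands behind them. The leukocyte and endothelial marker lists gave 0 of 7 and 0 of 8, near the 2.4% of all named genes that passed. BTK, a kinase of B cells and among the 15 largest increases, had 7.95 and 8.29 with TGFb, against 3.73 and 4.18 without (4.17 ± 0.23). BLNK, a B-cell adaptor that is not among these 5, went the other way and fell by 4.15 (adjusted p = 0.00433 from limma). CYTIP rose by 3.52 ± 0.30, IL2RA by 2.33 ± 0.21, SELE by 1.95 ± 0.25 and SELP, next to SELE in gene order, by 1.74 ± 0.24, whose call ended under quantile normalization. The defining markers did not pass on the same arrays, with PTPRC at 0.02 ± 0.15, CD3E at 0.01 ± 0.16, PECAM1 at −0.25 ± 0.16 and VWF at −0.16 ± 0.15.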
